A study of Rattus norvegicus with 20 samples.

Results

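The cytosolic ribosomal protein genes were taken as every probe whose only gene symbol in the platform's annotation begins with Rpl or Rps followed by a digit, or is Rpsa, Rplp0, Rplp1 or Rplp2, leaving out the S6 kinases. The rule gave 62 of the 35129 probes, for 51 of the 12199 genes so named. These probes were read in mesenteric arteries of female Sprague Dawley rats, the small arteries that feed the gut, each array carrying RNA of a single animal. Animals were ovariectomised at 4 weeks of age, rested for 2 weeks and then gavaged daily for 3 weeks, so all arteries came from 9-week-old rats without ovaries. The vehicle, 20% 2-hydroxypropyl-β-cyclodextrin, was given to 4 rats. Ethinyl estradiol, estradiol benzoate and equilin, which are estrogens, were given at 0.15 mg/kg to 3 rats each. The selective estrogen receptor modulators (SERMs) were given at 3 mg/kg, tamoxifen to 4 rats and raloxifene to 3. The estrogens and the SERMs thus differed in dose as well as in kind.

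A cytosolic ribosome is built from a small (40S) and a large (60S) subunit, each an RNA scaffold dressed with many proteins that are, with few exceptions, needed in equal amounts. Their messenger RNAs are among the most plentiful in most cells. In mammals they typically begin with a C followed by a run of pyrimidines, the 5′ terminal oligopyrimidine (TOP) tract, through which the mTOR pathway holds their translation back or releases it. Because synthesis is set largely at translation, messenger levels of these genes usually vary little, and several of them, such as Rplp0, Rpl13a and Rps18, are used as reference genes.

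The start of the gene shows this tract directly. RefSeq promoter entries (build GRCr8) were found for 43 of the 51 genes, each reaching from 250 bases before to 50 bases after the annotated start. At that start, read on the gene's own strand, 17 of the 43 (39.5%) had a C followed by at least 4 further C or T bases, against 881 of all 33469 promoters (2.63%). Among them were 12 of 24 genes of the 60S subunit, 5 of 14 of the 40S subunit and 0 of 5 like or pseudogene symbols. The 30-base windows below, 12 bases before the start and 18 from it, are shown for members whose levels are described below. Capitals mark the C at the start and the pyrimidines that follow it without a break; a window without capitals has no run of that length at its annotated start.
Rplp0 (chr12:46718373-46718402, minus strand): cgcaccgcacttCTCTCgccaggcgtcctc
Rpl9 (chr14:43247578-43247607, plus strand): gaaggacgttctCTCTTTgccccatctact
Rpl10 (chrX:157205838-157205867, plus strand): gcgtgggagcgtCTCTTTTCCTCTggcgcg
Rpl34 (chr2:221962266-221962295, minus strand): cttccttttcctCTTCCggggacggtgctt
Rps15 (chr7:10068098-10068127, minus strand): tgacaccgcttcCTTTTCCCagcagccgcc
Rps18 (chr20:4933733-4933762, plus strand): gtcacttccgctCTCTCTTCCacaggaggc
Rpl23 (chr10:83272167-83272196, minus strand): aacttcctttctgactctttccggacgctc
Rps4x (chrX:71342904-71342933, minus strand): agcgcgcgcagcctccgaccctaatttctt
Rpl36al1 (chr6:93392241-93392270, minus strand): gacttccgctccatccgtccctttcctgtt
The first 6 carry the tract at the annotated base. In the Rpl23 window a pyrimidine-rich stretch follows a few bases after the annotated start. A tract that lies beside the annotated base is not counted, so the share describes the annotation as much as the genes.

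The probes cover the ribosome in part. Of 46 listed genes of the large subunit 28 had a member probe, and of 31 of the small subunit 16. Another 9 probes belong to 7 symbols of paralogues, like genes or pseudogenes, among them Rpl3l, the muscle form of Rpl3, and Rps27l, a p53 target related to Rps27. A further 11 ribosomal protein probes carry several symbols, among them those of Rpl22 and Rps14, and were left out by the rule. The probe of Rplp2, an acidic stalk protein, was missing on all 20 arrays. Another 14 probes fell to the filter that drops the dimmest 30% of all probes by mean level, among them Rps3, Rpl8, Rpl14 and Rpl24. The remaining 47 probes, for 42 genes, were tested: 26 for the large subunit, 16 for the small one and 5 for like or pseudogene symbols. All 28 member probes with a RefSeq mRNA accession were tested, and 19 of the 34 without.

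Levels here are log2 values relative to the median probe of the same array. They can be compared for a probe across arrays, not between probes, since hybridisation differs from probe to probe. By mean level 21 tested members lay above the 99th percentile of all probes, 15 lay between the 60th and the 99th, and 11 below the 60th. The bright ones include Rps29, Rps3a, Rpl9, Rpl10 and Rplp0, and the dim ones include Rpl34, Rps4x, Rpl41, Rpl36al1 and a second probe of Rps15. The median within-group SD of the 47 probes was 0.324, against 0.326 for all 24562 tested probes, so the scatter was of the same size.

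The values split the arrays into 2 sets of 10. Vehicle 1 and the 9 estrogen arrays (set A) had a median intensity of at least 1.0408, and vehicles 2 to 4 and the 7 SERM arrays (set B) one of at most 1.015. A grid of 384 unnamed probes separates the same arrays. Estrogens can therefore be set against vehicle within a set only through vehicle 1, and each comparison is also given with the set as a block. Raloxifene 3 stood apart, with a mean correlation to the other arrays of 0.841 against 0.919 or more for each of the others. Most results that rest on it are given without it too. Of the artery's defining smooth muscle markers, Myh11, Tagln and Cnn1 were bright, while the Acta2 probe lay at the 46.6th percentile. Summed markers of pancreatic acinar cells ran from 3.67 to 771.53 intensity units on the ethinyl estradiol arrays. Under raloxifene they ran from 2.41 to 24.86, with 3.34 on raloxifene 3. Summed enterocyte markers stayed between 0.64 and 2.02. Their part in the results was not tested.

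No ribosomal protein probe passed an adjusted p of 0.05 (limma, Benjamini-Hochberg adjustment over all 24562 probes) in any of the 11 comparisons. The count was 0 of 47 against vehicle for ethinyl estradiol, where 1.2% of all tested probes passed, for estradiol benzoate (0.7%), equilin (3.69%), tamoxifen (0.224%) and raloxifene (2.04%). It was also 0 for the estrogens together (2.61%) and the SERMs together (0.574%). Between treatments it was 0 for ethinyl estradiol against estradiol benzoate (0.281%) or equilin (0.175%), for equilin against estradiol benzoate (0%) and for tamoxifen against raloxifene (0.00407%). At these background shares few of 47 probes would be called in any comparison, so a count of 0 sits close to the background. Since these are whole arteries, fewer cells of a type and less RNA per cell cannot be told apart.

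The precision of these comparisons was moderate. The median 95% interval of a member's fitted change reached 0.505 log2 units either side for a group of 3 and 0.468 for tamoxifen. The interval lay wholly within 1 log2 unit of no change for 37 of 47 probes under ethinyl estradiol, 35 under estradiol benzoate, 36 under equilin, 36 under tamoxifen and 27 under raloxifene. For those probes a doubling or a loss of equal size lies outside the interval. The interval lay within 0.5 log2 units of no change for 13, 10, 11, 6 and 2 probes in the same order of treatments, so for most members shifts of that size are inside the interval.

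**Figure D1:**
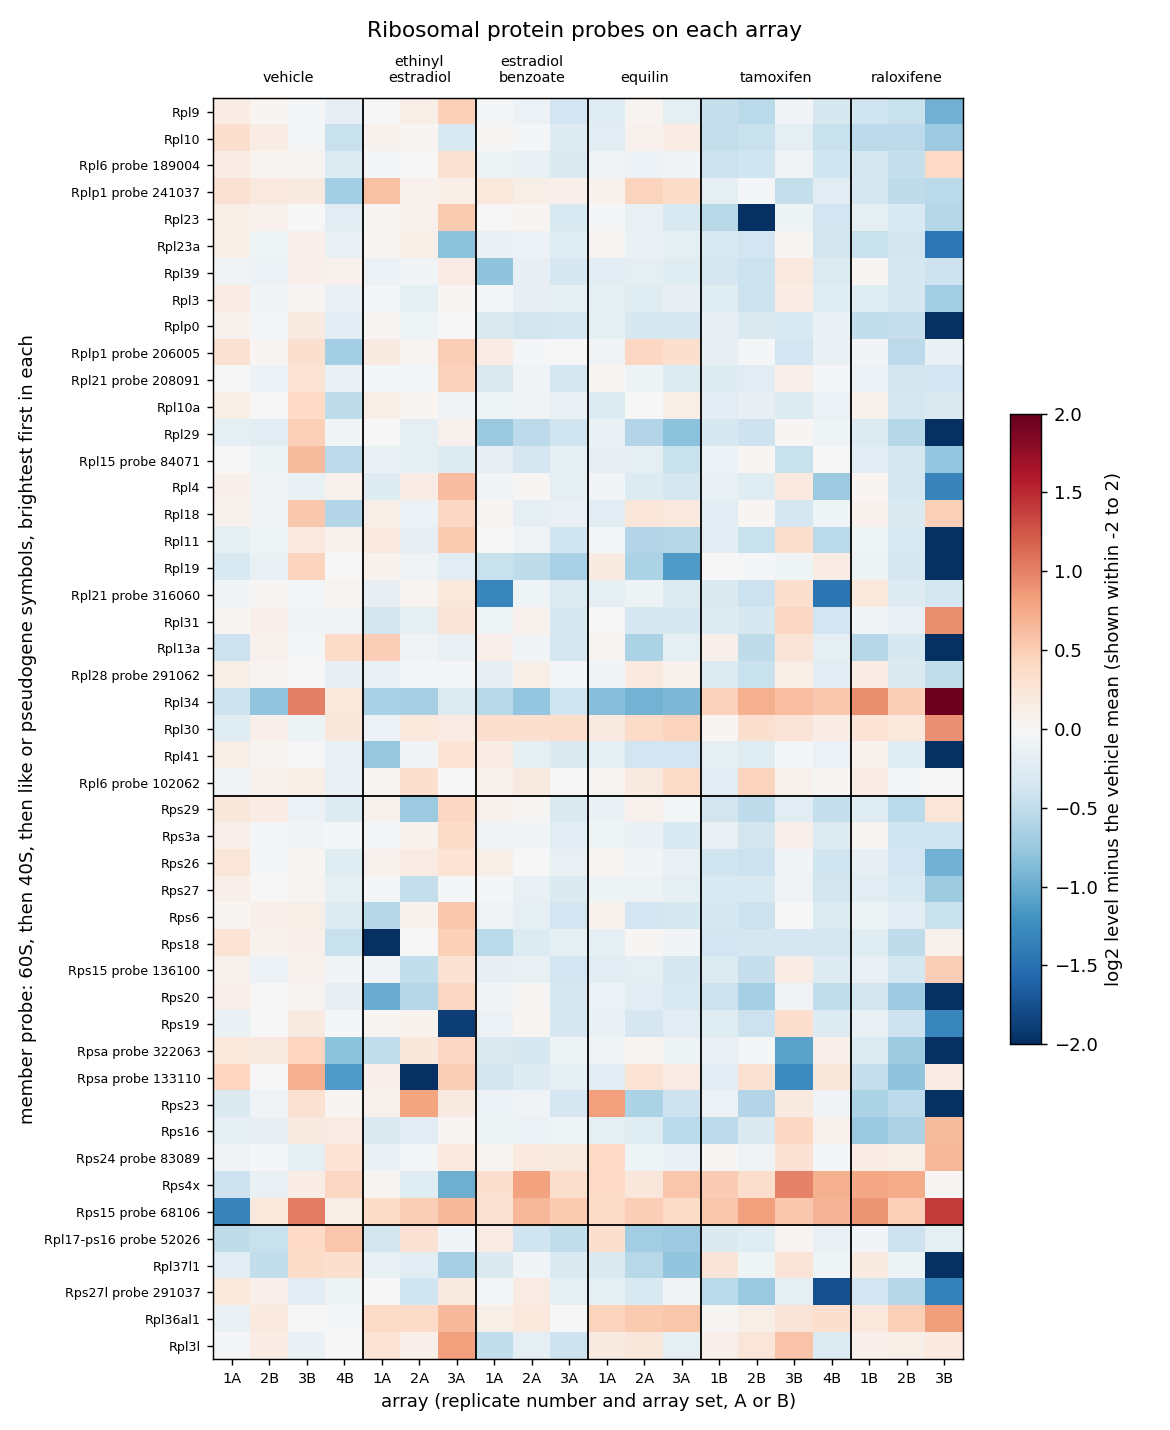
Log2 level of each of the 47 tested member probes (rows, by subunit and brightness) on each of the 20 arrays (columns, by group, with replicate number and array set), minus the mean of the vehicle arrays. Most cells are pale; raloxifene 3 shows a column of low readings, and single dark cells mark Rpl23 on tamoxifen 2 and Rps18 on ethinyl estradiol 1.

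Under the estrogens the family's median change lay close to that of all probes in the fit with all arrays. Their median fitted change was -0.003 under ethinyl estradiol (all probes -0.054), -0.135 under estradiol benzoate (all probes -0.117) and -0.127 under equilin (all probes -0.168). The member median thus lay about 0.05 or less from the median of all probes in each of the 3 comparisons. With set as a block, where vehicle 1 is the only control, the medians were -0.033, -0.22 and -0.225 (all probes -0.008, -0.058 and -0.146). In that fit the family under estradiol benzoate stood about as far below all probes as under tamoxifen (-0.183, all probes -0.042). Fitted changes below 0 were found for 24 of 47 members under ethinyl estradiol (all probes 56.5%), 39 under estradiol benzoate (66.8%) and 34 under equilin (65.9%). With quantile normalisation the estradiol benzoate and equilin medians were 0.031 and 0.024, so the sign of these small medians depends on the scaling.

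Under the SERMs the family sat lower than the median probe. The member median was -0.192 under tamoxifen (all probes -0.029) and -0.286 under raloxifene (all probes -0.024), and -0.289 for both together (all probes -0.04). Changes were below 0 for 37 of 47 members under tamoxifen, where 54.1% of all probes were, for 37 under raloxifene, where 51.9% were, and for 38 under both together, where 54.3% were. The block on array set, which compares the SERMs with vehicles 2 to 4, gave -0.183 and -0.305 (all probes -0.042 and -0.029). Both subunits showed it: the medians of the 60S and 40S probes were -0.196 and -0.224 under tamoxifen and -0.388 and -0.249 under raloxifene. Without raloxifene 3 the raloxifene median was -0.252. Markers of the artery's cells differed in the same comparisons. The summed intensity of 8 smooth muscle markers was 484.01 to 644.91 on the tamoxifen arrays and 671.43 to 864.51 on the vehicle arrays, with no overlap, and 602.71 to 827.05 under raloxifene. Under estradiol benzoate the sum was 492.69 to 651.84, also below all vehicle arrays. It was 587.6 to 674.69 under equilin and 816.6 to 912.27 under ethinyl estradiol. Most of the sum came from the bright Myh11, Tagln and Cnn1 probes (mean intensity 330.9, 222.5 and 92.84). Under tamoxifen the 8 markers had a median log2 change of -0.31 (all probes -0.029), and 0 of 8 passed the adjusted p of 0.05. The dim Acta2 and Myocd probes had means of -0.346 and -0.279 under tamoxifen and -0.615 and -0.412 in vehicle. For both SERMs together Kdr, an endothelial receptor, was called higher (0.70, adjusted p = 0.0464), as was Cd163, a macrophage receptor (0.90, adjusted p = 0.0376). With the array set as a block neither passed (adjusted p = 0.166 and 0.146). The 8 endothelial markers had a median change of -0.11 for both SERMs together, and the 6 macrophage markers -0.216 (all probes -0.04). The part of these markers in the result was not tested. Under quantile normalisation, which gives every array the same distribution of levels, the tamoxifen median was 0.009 and the raloxifene median -0.336, so the tamoxifen median, but not the raloxifene one, is near 0 on that scale.

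The medians were also read by brightness. The 21 members above the 99th percentile had a median of -0.256 under tamoxifen, and the 328 other probes above that percentile had -0.228; under raloxifene the values were -0.355 and 0.241, and without raloxifene 3 they were -0.286 and -0.178. The 26 dimmer members stood at -0.132 under tamoxifen, and at -0.235 under raloxifene with all arrays and -0.1 without raloxifene 3. Under tamoxifen, then, bright members and other bright probes had close medians with all arrays. With the array set as a block these medians were -0.223 and -0.131. Under raloxifene the medians of bright members and other bright probes lay apart, by less without raloxifene 3.

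The array medians show how far single animals carry the family. The member median relative to the vehicle mean was 0.069, 0.007, 0.1 and -0.132 on vehicles 1 to 4. It was -0.009, -0.023 and 0.201 under ethinyl estradiol, -0.066, -0.069 and -0.274 under estradiol benzoate, and -0.078, -0.128 and -0.192 under equilin. It was -0.223, -0.298, 0.051 and -0.21 under tamoxifen, and -0.121, -0.35 and -0.442 under raloxifene. Vehicle 4 lies below the other vehicles: it was the lowest of them for 25 of 47 members, while it was the lowest for 19.3% of all probes. Tamoxifen 3 stands above the other 3 tamoxifen arrays. So does its median of all tested probes, at 0.13 against -0.061, -0.079 and -0.039 on tamoxifen 1, 2 and 4. No p is given for these medians, because members are not replicates.

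**Figure D2:**
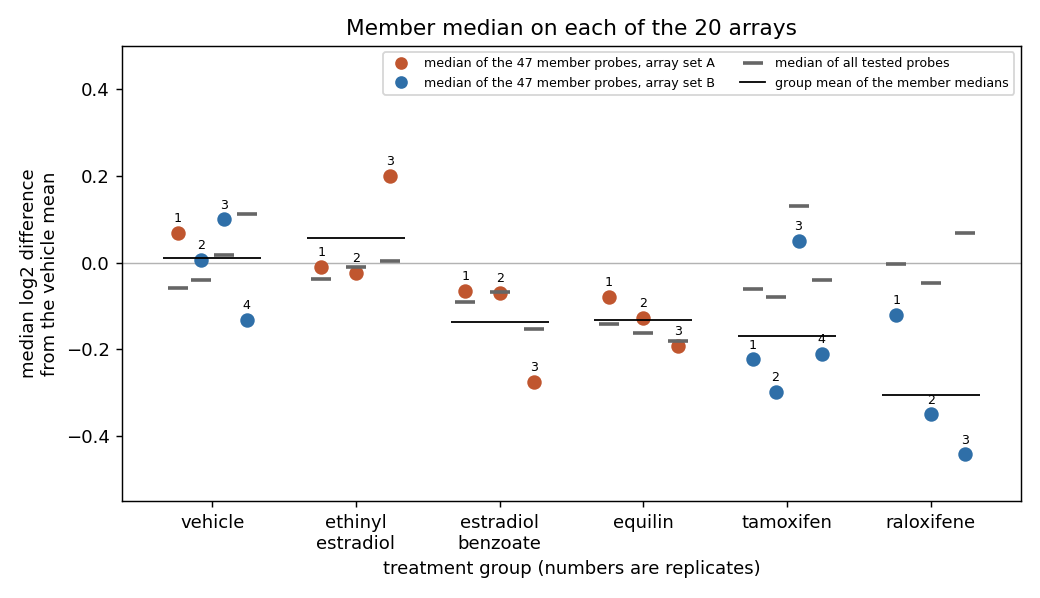
Median of the 47 member probes on each array relative to the vehicle mean (circles, coloured by array set, numbered by replicate), with the median of all tested probes (grey dashes) and the group mean of the member medians (black lines). Raloxifene arrays lie between -0.442 and -0.121, and the vehicle arrays between -0.132 and 0.1.

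**Figure D3:**
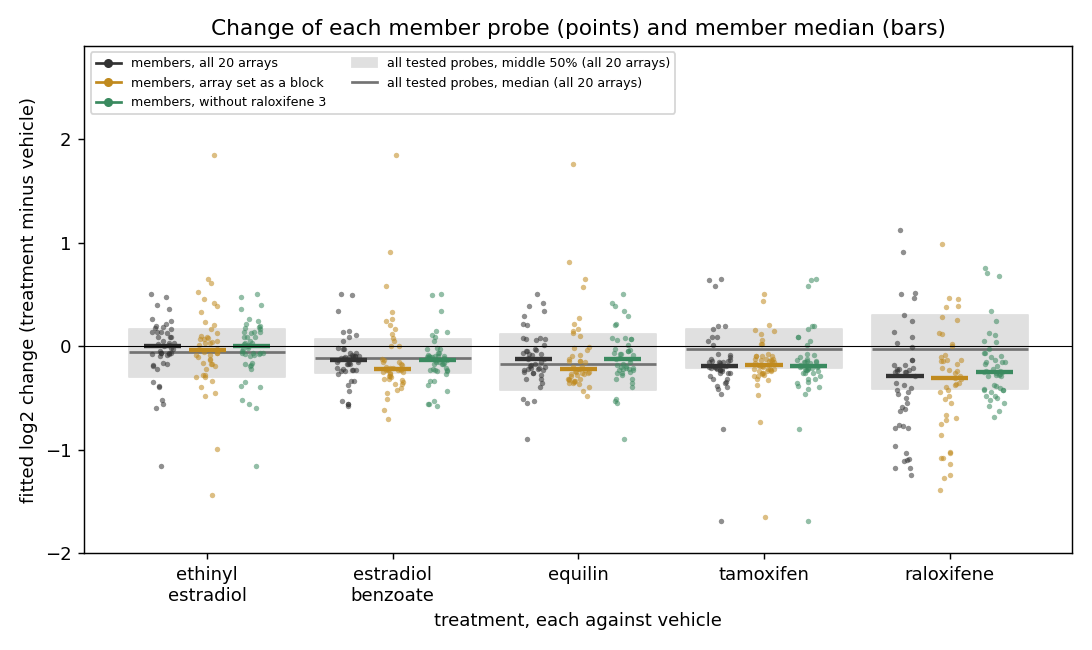
Fitted log2 change against vehicle of each member probe (points) and the member median (bars) for the 5 treatments, with all 20 arrays, with the array set as a block and without raloxifene 3; the grey band and line give the middle 50% and the median of all tested probes with all 20 arrays. The member medians lie between -0.305 and -0.003, and the points near 1.8 under the estrogens are a dim Rps15 probe in the block fit.

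At an unadjusted p under 0.05, raloxifene had the most members on the lower side with all arrays, but not without raloxifene 3. With all arrays 17 of 47 (36.2%) were lower, against 15.8% of all probes, and 4 were higher (8.51%, all probes 11.7%). Without raloxifene 3, 6 were lower (12.8%, all probes 7.83%), namely Rpl3, Rpl6, Rpl9, Rpl10, Rplp0 and Rps16. Under tamoxifen 4 were lower (8.51%, all probes 4.87%) and 1 higher (all probes 4.1%). Fitted without raloxifene 3, which also enters the pooled spread, 8 were lower under tamoxifen (17%, all probes 7.94%): Rpl6, Rpl9, Rpl10, Rplp0, Rps26, Rps27, Rps27l and Rps29. For both SERMs together 11 were lower (23.4%, all probes 10.7%) and 5 higher (10.6%, all probes 9.72%), and 12 were lower without raloxifene 3 (25.5%, all probes 10%). These counts carry no correction for the number of probes.

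Under the estrogens few members lay past this limit with all arrays. Ethinyl estradiol had 0 lower (all probes 8.67%) and 1 higher (5.27%), estradiol benzoate 1 lower (4.71%) and 0 higher (2.98%), and equilin 1 lower (15.4%) and 1 higher (6.06%). The estrogens together had 1 lower (11.8%) and 1 higher (5.9%). Without raloxifene 3 the lower counts were 0 for ethinyl estradiol (all probes 12.3%), 4 for estradiol benzoate (8.51%, all probes 8.21%), 5 for equilin (10.6%, all probes 24%) and 5 for the estrogens together (10.6%, all probes 19.1%). Rpl19, Rpl29 and Rplp0 were among the lower members in the last 3 of these fits.

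The arrays of a treatment lay wholly below all vehicle arrays for 11 members under raloxifene (23.4%, all probes 10.8%), 8 under estradiol benzoate (17%, all probes 10.1%) and 7 under equilin (14.9%, all probes 22.4%). Neither ethinyl estradiol (all probes 7.68%) nor tamoxifen (all probes 4.48%) had such a member. Wholly above vehicle lay 1 member each under ethinyl estradiol (all probes 5.32%), equilin (6.93%) and raloxifene (6.18%), in each case Rpl36al1, and 1 under estradiol benzoate (3.66%), Rpl30. Under tamoxifen there was 0 (2.16%). The raloxifene members were Rpl3, Rpl9, Rpl10, Rpl23a, Rpl29, Rplp0, Rps19, Rps20, Rps23, Rps27 and Rps27l, from both subunits.

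Which animals enter decides whether raloxifene gives any call. Without raloxifene 1 the count of members passing the adjusted p was 13 (all probes 9.47%), and without raloxifene 2 it was 10 (15.4%); both fits lean on raloxifene 3 and 1 further array. Without vehicle 4 it was 4 (5.54%), Rpl9, Rpl10, Rplp0 and a probe of Rplp1, and without raloxifene 3 it was 0. With arrays weighted by their quality, 11 members passed under raloxifene (all probes 17.9%), 11 under tamoxifen (15.5%) and 9 under equilin (27.9%).

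Among the stalk proteins, Rplp0, which anchors the acidic P proteins that recruit elongation factors, had the lowest p under raloxifene. Its level was 7.17, 7.08, 7.28 and 6.87 on the vehicle arrays and 6.61, 6.63 and 4.74 on the raloxifene arrays, so all 3 raloxifene arrays lay below all 4 vehicle arrays. The fitted change was -1.10 ± 0.30 (SE; adjusted p = 0.0607). Much of its size came from raloxifene 3, at 29.6 intensity units where the next lowest of all arrays had 108.1: without it the change was -0.48 (adjusted p = 0.0895), and with set as a block -1.08 (adjusted p = 0.125). Under tamoxifen Rplp0 was 6.94, 6.81, 6.80 and 6.97, under ethinyl estradiol 7.13, 7.01 and 7.09, under estradiol benzoate 6.81, 6.73 and 6.75, and under equilin 6.92, 6.78 and 6.75. Estradiol benzoate thus also lay just below every vehicle array (change -0.34, adjusted p = 0.872). Rplp1, an acidic P protein, is read by 2 probes of the same transcript at most 0.225 apart in any comparison. The brighter one read 7.71, 7.61, 7.599 and 6.73 in vehicle, 7.22, 7.38, 6.93 and 7.20 under tamoxifen and 7.08, 6.90 and 6.87 under raloxifene. Vehicle 4 lies below all of these treated arrays and the other vehicles above all of them; the raloxifene change was -0.46 ± 0.21 (SE; adjusted p = 0.158).

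Rpl10 and Rpl9, like Rplp0, had a lower mean under tamoxifen than in vehicle and the lowest under raloxifene. The place of the estrogens differed between these members. Rpl10, which joins the large subunit late in its assembly, was at 8.30, 8.12, 7.94 and 7.52 in vehicle, 7.49, 7.52, 7.79 and 7.53 under tamoxifen and 7.44, 7.45 and 7.24 under raloxifene. Vehicle 4 sits among the tamoxifen arrays, and raloxifene lies below all vehicles. The changes were -0.39 ± 0.16 (SE; adjusted p = 0.498) and -0.59 ± 0.17 (adjusted p = 0.0661), and -0.49 ± 0.14 for both SERMs (adjusted p = 0.0955), the lowest p of any member in that comparison. The estrogen arrays of Rpl10 ran from 7.66 to 8.12, inside the vehicle range. Rpl9, a core protein of the large subunit, was at 8.18, 8.08, 7.996 and 7.87 in vehicle, 7.58, 7.49, 7.98 and 7.71 under tamoxifen and 7.63, 7.59 and 7.07 under raloxifene, a change of -0.60 ± 0.17 (adjusted p = 0.0628). Without raloxifene 3 the Rpl9 change was -0.42 (adjusted p = 0.262) and that of Rpl10 -0.52 (adjusted p = 0.229).

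Some members went the other way. Rpl34, a large-subunit protein read by a dim probe, was at -0.12, -0.50, 1.31 and 0.50 in vehicle, a spread as wide as the treatment differences. It was 0.76, 1.0, 0.90 and 0.84 under tamoxifen and 1.22, 0.79 and 2.25 under raloxifene, and it lay between -0.65 and 0.04 on the 9 estrogen arrays. The estrogen and SERM arrays therefore did not overlap, but they come from different array sets. Against vehicle the change was 1.12 ± 0.34 (SE) under raloxifene (adjusted p = 0.0704) and -0.90 ± 0.34 under equilin (adjusted p = 0.141), and with the array set as a block 0.98 and -0.48 (adjusted p = 0.158 and 0.949). Without vehicle 2 the equilin change was -1.16 and passed (adjusted p = 0.047), and without raloxifene 2 the raloxifene change was 1.44 and passed (adjusted p = 0.023). The last of these fits leans on raloxifene 3. Raloxifene 1 and 2 had a mean of 1.005 against 0.295 in vehicle, and vehicle 3 lay above both. Without raloxifene 3 no member passed under raloxifene (smallest adjusted p = 0.0895).

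Rps4x, the X-linked form of a small-subunit protein, was at -0.18, 0.09, 0.39 and 0.64 in vehicle, 0.74, 0.59, 1.23 and 0.94 under tamoxifen and 1.01, 0.97 and 0.26 under raloxifene. Ethinyl estradiol stood at 0.29, -0.01 and -0.74, below all estradiol benzoate arrays (0.56, 1.033 and 0.59) and all equilin arrays (0.64, 0.45 and 0.79). These estrogen arrays share a set. The differences were -0.88 ± 0.28 (SE; adjusted p = 0.255) and -0.78 ± 0.28 (adjusted p = 0.356). Rpl3l differed between the same estrogens, at -0.73, -0.91 and -0.18 under ethinyl estradiol and -1.50, -1.20 and -1.42 under estradiol benzoate, a difference of 0.77 ± 0.22 (adjusted p = 0.176); its probe lies at the 37.3th percentile. Rpl3, its common counterpart, was 7.07, 6.90 and 7.10 against 7.04, 6.92 and 6.89.

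Rpl36al1, a like gene of a large-subunit protein, was the member nearest to a call under the estrogens. It was at -0.87, -0.54, -0.74 and -0.78 in vehicle, -0.36, -0.35 and -0.08 under ethinyl estradiol and -0.29, -0.21 and -0.18 under equilin, so both groups lay above all vehicle arrays. Under estradiol benzoate it was -0.62, -0.53 and -0.73, with estradiol benzoate 2 just above every vehicle array and the others inside the vehicle range. The changes were 0.47 ± 0.15 (SE; adjusted p = 0.167), 0.51 ± 0.15 (adjusted p = 0.0758) and 0.11 ± 0.15 (adjusted p = 0.918). Fitted without raloxifene 3, which carries no estrogen but adds to the pooled spread, the equilin change passed (adjusted p = 0.0244), as did 12.5% of all probes; with the array set as a block it was 0.64 (adjusted p = 0.382). It was -0.52, -0.26 and 0.10 under raloxifene, again above every vehicle array (0.51 ± 0.15, adjusted p = 0.0721), and -0.70, -0.61, -0.47 and -0.39 under tamoxifen.

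**Figure D4:**
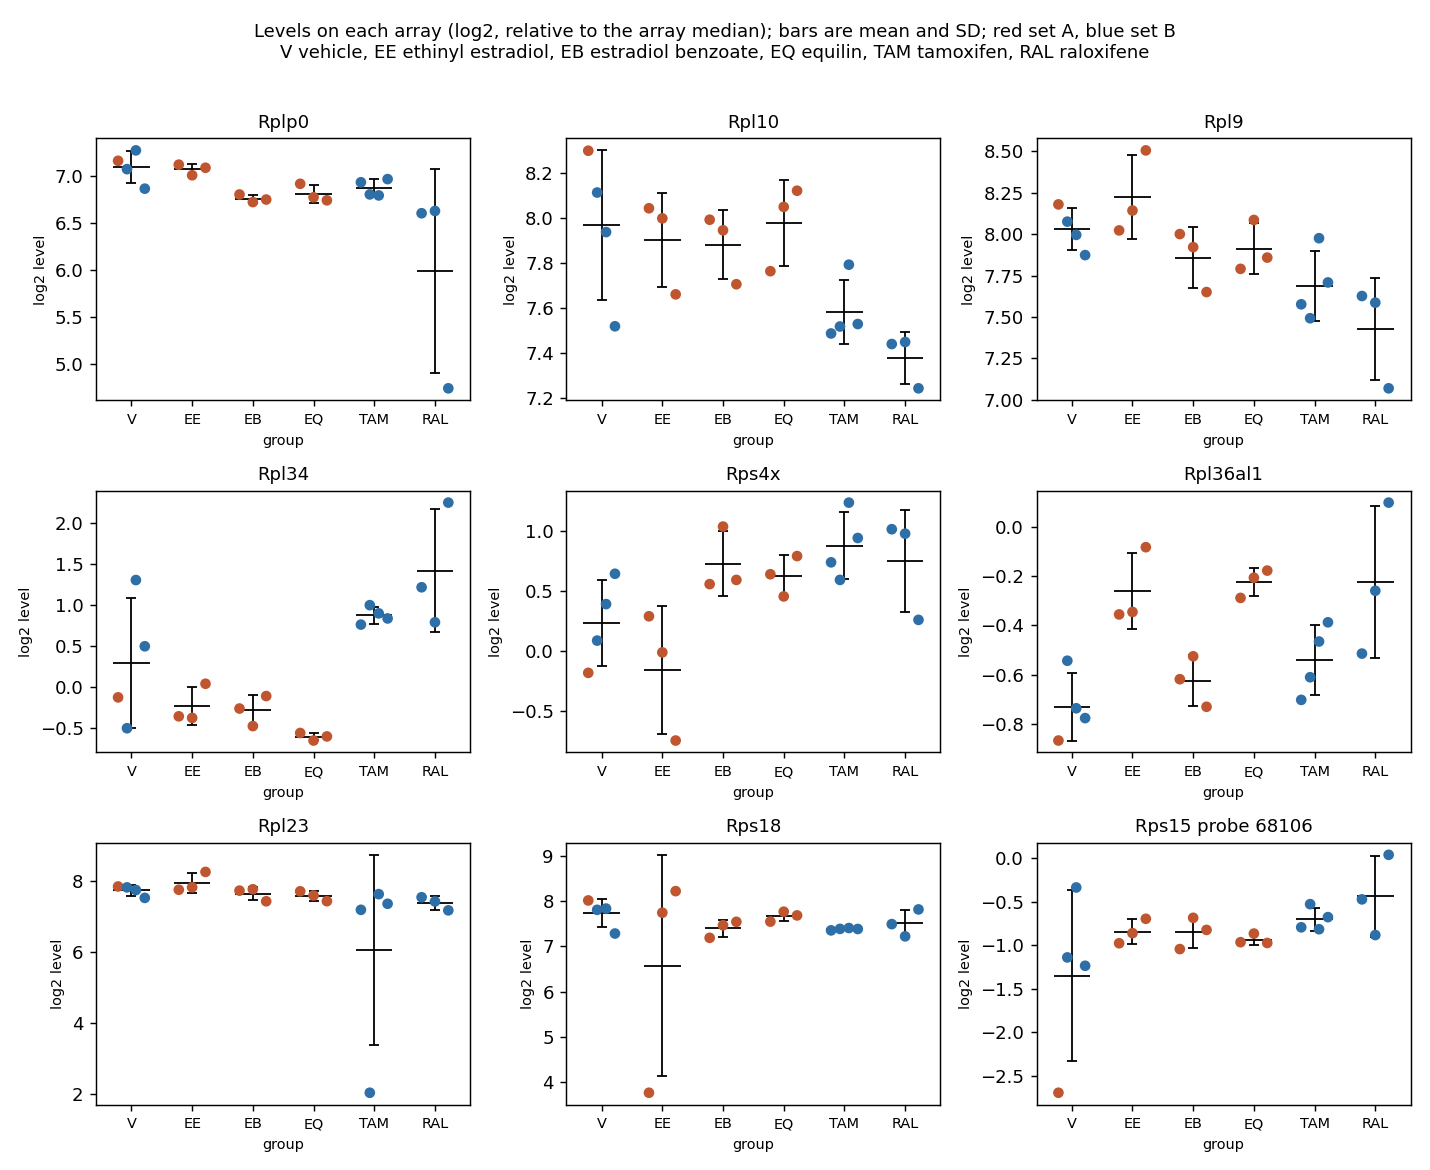
Log2 level of 9 members on every array by group (points, coloured by array set), with the group mean and SD. Rpl34 lies at 0.76 or higher on all SERM arrays and at 0.04 or lower on all estrogen arrays, and single low points mark Rpl23 on tamoxifen 2, Rps18 on ethinyl estradiol 1 and the dim Rps15 probe on vehicle 1.

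The remaining members at the ends of each comparison with vehicle were all short of the threshold. Under estradiol benzoate they were Rpl34 (-0.58), Rpl29 and a probe of Rpl21 (both -0.56) at the low end and Rpl30 (0.34) and Rps4x (0.49) at the high end, with adjusted p of 0.698 or more. Rpl30, which also binds its own transcript in other organisms, read -0.61, -0.27, -0.47 and -0.15 in vehicle and -0.04, -0.04 and -0.01 under estradiol benzoate, above all vehicle arrays by a narrow gap. Under equilin Rpl37l1 (-0.55, adjusted p = 0.464) and Rpl19 (-0.53, adjusted p = 0.486) followed Rpl34, and Rps4x was at 0.39 (adjusted p = 0.389). Under tamoxifen Rpl23, Rps27l (-0.81 ± 0.27 SE, adjusted p = 0.374) and the Rpl21 probe (-0.46, adjusted p = 0.678) were lowest, and Rpl34 (0.58), Rps4x (0.64) and the dim Rps15 probe (0.65) highest. The dim probes of Rpl34, Rps4x and Rps15 were thus the 3 highest members under both SERMs. The Rps15 changes lean on a reading of -2.70 on vehicle 1, where vehicles 2 to 4 read -1.14, -0.34 and -1.24. Its tamoxifen arrays ran from -0.82 to -0.53 and its raloxifene arrays from -0.88 to 0.04.

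Under raloxifene the lowest members were Rpl13a, Rpl29 and Rps23. Rps23, a small-subunit protein at the decoding centre, read 3.39, 3.61, 3.98 and 3.73 in vehicle and 3.04, 3.15 and 1.31 under raloxifene, below all vehicle arrays (-1.17 ± 0.39 SE, adjusted p = 0.0837; -0.58 without raloxifene 3). Rps20, which lies on the head of the same subunit, read 7.65, 7.55, 7.59 and 7.38 in vehicle and 7.17, 6.82 and 5.30 under raloxifene, also below all vehicle arrays. Its tamoxifen arrays read 7.12, 6.88, 7.48 and 7.06, with tamoxifen 3 inside the vehicle range. For both SERMs together Rps20 was at -0.76 ± 0.28 (SE; adjusted p = 0.159), and at -0.48 without raloxifene 3.

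The largest single deviations were isolated readings of bright probes. Rpl23, a large-subunit protein that can also bind Mdm2, read 4.43 intensity units on tamoxifen 2, where the lowest of the other 19 arrays had 160.4. On the log2 scale this is 2.02 against 7.19, 7.63 and 7.36 on the other tamoxifen arrays, and it gives the most negative member change under tamoxifen, -1.69 ± 0.79 (SE; adjusted p = 0.554). Rps18, a small-subunit protein at the head of the 40S particle, read 15.7 units on ethinyl estradiol 1, where the lowest of the other arrays had 165.7. Its ethinyl estradiol levels were 3.77, 7.74 and 8.22, which gives the most negative change there, -1.16 ± 0.65 (adjusted p = 0.442).

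Further isolated readings of more than 1 log2 unit below the median of the other arrays were found for Rps19 and Rps4x on ethinyl estradiol 3, Rpl19 on equilin 3, a probe of Rpl21 on estradiol benzoate 1 and tamoxifen 4, Rps27l on tamoxifen 4, and a probe of Rpsa on vehicle 4, ethinyl estradiol 2 and tamoxifen 3, and the dim Rps15 probe on vehicle 1. Rps19, the small-subunit gene most often mutated in Diamond-Blackfan anaemia, read 5.53 on ethinyl estradiol 3 against 7.46 and 7.48 on the other ethinyl estradiol arrays. Outside raloxifene 3 each array had at most 2 such members of 47, or 4.26%, where 0.448% to 6.94% of all probes met the same limit.

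The 2 probes of Rpsa, the laminin-binding protein of the small subunit, share a transcript but parted on single arrays. Probe 133110 read 5.95, 5.51, 6.22 and 4.38 in vehicle and probe 322063 read 5.89, 5.85, 6.11 and 4.86, low together on vehicle 4, and they were low together on tamoxifen 3 (4.25 and 4.61). On ethinyl estradiol 2 the first read 3.24 and the second 5.90, and on raloxifene 3 the first read 5.66 and the second 3.39. The raloxifene change was -0.37 by the first probe and -1.09 by the second, 0.724 apart. Of the 5 genes with more than 1 tested probe, only Rps15 had a larger gap, 0.918, between a bright probe with no change under raloxifene (-0.01) and a dim one (0.91). The change of the dim Rps15 probe leans on its low vehicle 1 reading.

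That dim Rps15 probe was the only member called with the array set as a block, where the estrogens rest on vehicle 1. It read -2.70 on vehicle 1 and -1.14, -0.34 and -1.24 on the other vehicles, while the 9 estrogen arrays lay between -1.04 and -0.69. The block fit gave 1.85 for ethinyl estradiol, 1.84 for estradiol benzoate and 1.76 for equilin (adjusted p = 0.0194, 0.018 and 0.0201), and 1.82 for the estrogens together (adjusted p = 0.00679). Of all probes 0.546%, 0.407%, 0.647% and 0.68% passed in these 4 block fits. With all vehicles the changes were 0.51, 0.50 and 0.42, none past the threshold. In intensity units vehicle 1 had 0.0745, close to the background. The bright Rps15 probe read 7.54 on vehicle 1 and between 6.97 and 7.76 on the estrogen arrays.

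Raloxifene 3 carried a column of low members. More than 1 log2 unit below the median of the other 19 arrays lay 14 of 47 members (29.8%), where 20.3% of all probes did. Against the mean of raloxifene 1 and 2, 13 members were lower by more than 1 (27.7%, all probes 18.8%) and 3 higher (6.38%, all probes 7.78%). The low ones spanned both subunits and all levels of brightness. Rpl13a, a protein of the large subunit with a role in silencing inflammatory transcripts, read 2.08, 2.33 and -0.21 on raloxifene 1 to 3. Rpl11, which with Rpl5 restrains Mdm2, read 5.23, 5.01 and 2.79, and Rpl29 read 6.15, 5.85 and 3.75. Their raloxifene changes of -1.25, -0.97 and -1.18 became -0.44, -0.19 and -0.43 without that array.

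Others on the same array were high. Rps16 read 2.75, 2.89 and 4.12, Rpl31 read 2.61, 2.51 and 3.58, and Rpl34 read 1.22, 0.79 and 2.25. Probes for proteins of the same subunit therefore lay more than 1 log2 unit to either side on a single array. The genome-wide scatter of that array is given above, and whether RNA quality or hybridisation bears on it was not tested.

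**Figure D5:**
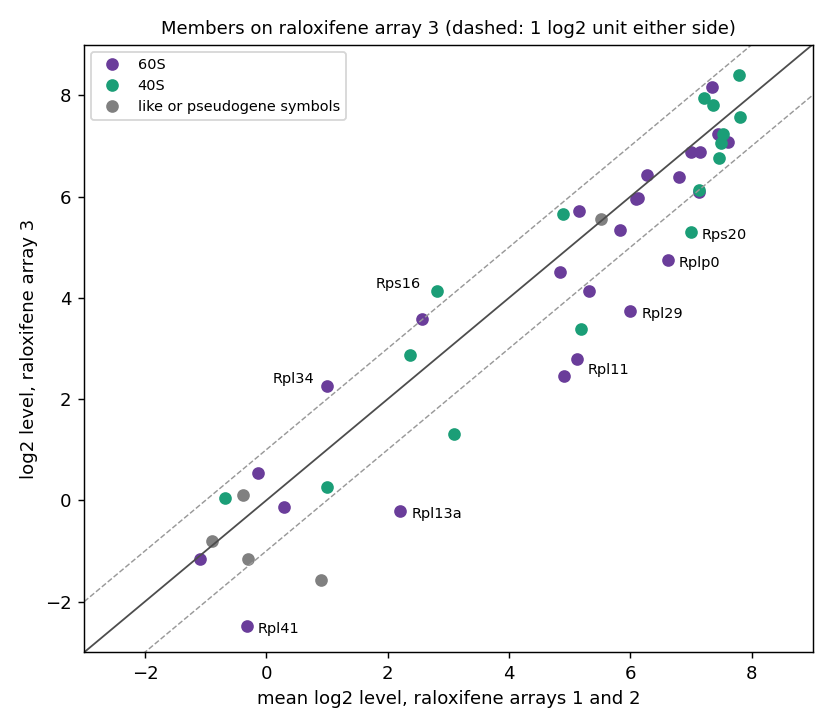
Log2 level of the 47 members on raloxifene 3 against their mean on raloxifene 1 and 2, by subunit; the solid line marks equality and the dashed lines 1 log2 unit either side. Of the members 13 lie below the lower dashed line and 3 above the upper one.

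Rps6, the substrate of the S6 kinases downstream of mTOR, showed small mean differences. It read 7.71, 7.79, 7.79 and 7.42 in vehicle, and 7.10, 7.75 and 8.22 under ethinyl estradiol, on both sides of the vehicle range. Its changes were 0.01 under ethinyl estradiol, -0.22 under estradiol benzoate, -0.21 under equilin, -0.26 under tamoxifen and -0.25 under raloxifene (SE 0.19 to 0.21; adjusted p = 0.437 or more in each). Rps3a and Rps27, small-subunit proteins, had narrow vehicle ranges, 7.93 to 8.08 and 7.58 to 7.86. Rps27l was at 0.39, 0.28, -0.03 and 0.08 in vehicle, -0.36, -0.56, 0.00 and -1.58 under tamoxifen and -0.20, -0.39 and -1.17 under raloxifene. For both SERMs the change was -0.79 ± 0.24 (SE; adjusted p = 0.109), against -0.33 ± 0.12 for Rps27 (adjusted p = 0.159).

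Members with and without the TOP tract at the annotated start had similar medians. Under raloxifene the 17 probes of genes with the tract at the annotated start had a median change of -0.236 and the 23 probes of genes without it -0.355. Without raloxifene 3 the medians were -0.252 and -0.241. Under tamoxifen they were -0.21 and -0.151, and under equilin -0.119 and -0.157. These are descriptions of medians, and the difference was not tested.

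The rest of the translation machinery gave few calls, to be read against the 3.69% of all probes that passed under equilin, 2.61% for the estrogens together and 2.04% under raloxifene. Of 28 tested initiation factor genes only Eif2b4, a subunit of the exchange factor that recharges eIF2, passed, lower under equilin (-0.72, adjusted p = 0.0383). Of 54 ribosome biogenesis genes only Rpf2, which loads the 5S particle with Rpl5 and Rpl11 onto the large subunit, passed, lower under equilin by the fit at -1.05 (adjusted p = 0.0167). Rpf2 read 1.58, 1.74, 2.57 and 2.65 in vehicle and 1.11, 0.85 and 1.31 under equilin; vehicle 1, of the same array set, is the nearest, and with the set as a block the change was -0.49 (adjusted p = 0.84). The biogenesis list had a median of -0.444 under equilin (all probes -0.168), with 19 of 54 genes lower and 0 higher at an unadjusted p under 0.05, where 15.4% of all probes were lower and 6.06% higher. The ribosomal proteins stood at -0.127 in that comparison. With the block the medians were -0.287 for biogenesis and -0.225 for the ribosomal proteins, closer to each other; the difference was not tested.

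Of 12 genes of RNA polymerase I, which makes the ribosomal RNA, Taf1c passed for the estrogens together (-0.52, adjusted p = 0.0487). Of 14 genes of the TOR pathway and growth, Pdcd4, an inhibitor of the helicase eIF4A, passed under equilin (-0.73, adjusted p = 0.0351). Of 6 S6 kinase genes Rps6ka2 passed under raloxifene, lower by the fit at -0.95 (adjusted p = 0.0387); it read 1.34, 1.34 and 0.38 there and 2.03, 1.85, 2.11 and 1.88 in vehicle. With the array set as a block none of these 5 genes passed. None of 10 elongation and termination genes and none of 60 mitochondrial ribosomal protein genes passed in any comparison. Under raloxifene the elongation list nevertheless had a median of -0.743 (all probes -0.024), with 6 of 10 genes lower at an unadjusted p under 0.05 (all probes 15.8%), and the polymerase I list one of -0.548, both further from 0 than the ribosomal proteins. With the block these medians were -0.664 and -0.615, and without raloxifene 3 they were -0.277 and -0.278, with 1 gene of each list lower. Eef1a1, the elongation factor with a TOP tract of its own, read 7.10, 7.04 and 4.79 under raloxifene and 7.26 to 7.42 in vehicle, low on raloxifene 3 like Rplp0. The mitochondrial list, whose proteins serve the separate ribosome of that organelle, had medians of -0.276 under equilin, -0.059 under tamoxifen and -0.249 under raloxifene, and -0.106 under raloxifene without raloxifene 3.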

How the data were processed

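RNA of mesenteric arteries from 20 rats was hybridised to CodeLink single-colour arrays, 1 rat per array. The deposited intensity values are linear, background-subtracted and already scaled, with some negative values left, as the files show; GenePix scanner 4000B, GenePix Pro 5.0, Acuity 3.1 and GeneSpring 7.1 appear in the submitters' processing notes, and their separate roles are not given in these sources. Genes were named by GEO's platform annotation: 16865 probes had 1 symbol, 165 several and 18099 none.

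From these values log2(intensity + 0.103) was computed, with negatives set to 0 first, and each array was centred on its median. The offset is 0.1 times the median array median. Left out were 40 probes with over 1 missing value in some group, and the dimmest 30% by mean, so that 24562 remained. All 6 groups entered 1 limma model (limma 3.58.1, R 4.3.3; eBayes with trend), and p-values were adjusted by Benjamini-Hochberg over all tested probes at 0.05, 2-sided. The number of arrays limits the precision. With 1 array per rat, p-values measure the spread between rats and between arrays together. Without the block, the spread of the vehicle group also holds any difference between the array sets.

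Members and gene lists were chosen with earlier results of these data known. Members given in full are the 3 highest and 3 lowest by change in each comparison with vehicle, a fixed set of stalk, signalling and paralogue genes, and members with disagreeing probes or isolated readings; of the fixed set, Rpl5, Rpl22, Rpl22l1 and Rps14 are no members. Others serve as examples, chosen after their values were seen. Replicate numbers did not pair the animals: deviations of same-numbered arrays correlated between -0.425 and 0.297 over 46 pairs. The alternatives were other offsets, filters and normalisations, array weights, the array set or the replicate number as a block, and leaving out each array.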

Additional observations from a re-analysis of the deposited data

Results flagged for a closer look

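In groups of 4 arrays, 6 of 94 checks found a member with an array far from the other 3 by Dixon's criterion, and chance alone gives about 1 in 20. Tamoxifen 3 was the high array for 4 bright or mid-level members. Its median of all tested probes, 0.13 relative to the vehicle mean, was also the highest of the tamoxifen arrays. Rpl10 read 7.794 there against 7.488 to 7.53 on the other tamoxifen arrays, and Rps26, a small-subunit protein at the mRNA exit, read 7.673 against 7.291 to 7.336. The bright Rpl6 probe read 7.691 against 7.321 to 7.359, and Rpl31 read 3.072 against 2.277 to 2.384. The other tamoxifen reading was Rpl23 on tamoxifen 2, at 2.024 where the others had 7.192 to 7.635. In vehicle the brighter Rplp1 probe read 6.731 on vehicle 4 against 7.599 to 7.712. These are values only, and what lies behind them was not tested.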

How the results depend on the processing

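Over 34 other settings and 11 comparisons, the count of members passing stayed the same in 352 cases and moved in 22, and the member median moved by less than the replicate SD of 0.126 in 366 and by more in 8. The median of a comparison cannot change when an array of another group is left out or only the variance model changes. Many of the 366 cases were thus fixed in advance. Among 17446 values of single members 88 newly passed and 0 reversed while past the threshold. Array weights gave 9 members passing under equilin (all probes 27.9%), 11 under tamoxifen (15.5%), 11 under raloxifene (17.9%) and 14 for the SERMs together (19.1%). They gave 1 for ethinyl estradiol against equilin (7.18%) and 2 for equilin against estradiol benzoate (16.4%). For tamoxifen against raloxifene they gave 1 (5.7%), and that median became -0.082. Without a filter on dim probes 1 passed under ethinyl estradiol, Rpl24 (all probes 0.693%). With the array set as a block, with or without raloxifene 3, 1 passed under each estrogen and under the estrogens together, the dim Rps15 probe. Of all probes 0.407% to 0.68% passed in these fits with raloxifene 3 and 0.692% to 1.3% without it. Quantile normalisation gave medians of 0.031 for estradiol benzoate, 0.024 for equilin, 0.009 for tamoxifen, -0.031 for ethinyl estradiol against estradiol benzoate, -0.039 against equilin and 0.301 for tamoxifen against raloxifene; the cause was not tested. Leaving out each array in turn gave 0 to 1 member under equilin, 0 to 13 under raloxifene and 0 to 2 for the SERMs, and a raloxifene median from -0.426 to -0.22. In the fits with 1 member passing under equilin, 5.82% or 12.5% of all probes passed. The share was 9.47% in the raloxifene fit with 13 and 3.72% in the SERM fit with 2. Where leaving out an array leaves 2 arrays in a group, the pooled spread of all groups carries the test. The replicate number as a block gave 0 members passing in all 11 comparisons. Signal limits 11 members below the 60th percentile, which lie near background.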
